A study of Mus musculus with 3 samples.

Results

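Background reads of 3 chromatin immunoprecipitation (ChIP-seq) libraries were compared along the mouse genome, to find 1 Mb windows in which the H3R2me2s and H3K4me3 libraries held unequal shares of their background. Reads were counted in 1 kb bins (mm9) on chromosomes 1 to 19. A background bin held a read in any library and lay more than 5 bins from every enriched bin, and an enriched bin held at least 15 reads of H3R2me2s, 16 of H3R2me2sK4me3 or 25 of H3K4me3. The level of a window is its mean background count over the genome-wide background mean of the same library, so 1 is the genome-wide level. Of 2369 windows with at least 300 background bins, 474 had a log2 of H3R2me2s over H3K4me3 of at least 0.25 in size and are the members described here. There were 184 members in which H3R2me2s was relatively higher (higher members) and 290 in which it was relatively lower (lower members). These counts are 20%, 7.77% and 12.2% of the windows, and they were chosen on the compared values themselves, so the ratio of a member is a description and not a test.

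All 3 libraries are from pro-B cells transformed by Abelson virus, labelled RAG2-/- and of strain C57BL/7, and grown in RPMI1640 with serum. Each antibody had 1 library and no input library was used here, so no difference has a replicate check. H3R2me2s is histone H3 dimethylated symmetrically at arginine 2, H3K4me3 is histone H3 trimethylated at lysine 4, and H3R2me2sK4me3 stands for both marks together. Per the labels, the antibodies to H3R2me2s and H3R2me2sK4me3 (here the arginine antibodies) were custom-made and the one to H3K4me3 came from Abcam. Whether the cells are 1 clone, and whether the libraries came from 1 preparation, is not stated in the labels. The labelled cell type was not checked against marker genes, since no mm9 annotation was used.

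H3K4me3 marks promoters of active and poised genes, and symmetric dimethylation of H3R2 is found with it at promoters. Reads outside such sites can come from chromatin that is recovered without the mark. Weak or broad marking below the limits for enriched bins can also remain in background, and its part was not tested. The density of reads from unmarked chromatin is known to vary with the number of DNA copies and with how readily chromatin is sheared and dissolved. It also varies with base composition and with how much of the sequence can be mapped. A gain or loss of DNA copies changes enriched and unenriched reads of the same stretch by the same factor and has a sharp edge. Where the cells of all libraries carry it, it cancels in a ratio of 2 libraries. Only where the cells of 1 library alone carry it would loss of 1 of a pair of copies give a log2 ratio of -1, and gain of 1 copy 0.58, or the opposite sign for the other library.

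Depth was sufficient to measure a single window well. Background held 4702614 reads of H3R2me2s, 3713520 of H3R2me2sK4me3 and 5941157 of H3K4me3, or 2.42, 1.91 and 3.05 reads per bin. The median window held 1940, 1540 and 2486 of them. Counting error of the log2 ratio had a median SD of 0.04 and reached 0.11 in the window with fewest reads, while the SD over windows was 0.20. No member had a 95% interval that included equal levels, which follows from the threshold of 0.25 and this counting error. Of the 1895 windows under the threshold, 767 had an interval that included equal levels. All intervals are exact binomial ones. They cover counting error only, as reads copied by PCR were not told apart by molecular identifiers. The log2 ratios ran without a gap across the threshold. The members nearest to it had -0.2506 (chromosome 8, 14000001 to 15000000), -0.2504 (chromosome 16, 82000001 to 83000000) and -0.2501 (chromosome 6, 68000001 to 69000000). Just outside were windows with -0.2494 (chromosome 12, 73000001 to 74000000), -0.2494 (chromosome 10, 119000001 to 120000000) and -0.2492 (chromosome 11, 111000001 to 112000000).

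To separate the choice of members from their measurement, windows were also chosen on odd-numbered bins alone and measured on the even-numbered bins, which are different reads of the same libraries. Of 2368 windows, 201 were chosen as higher. Their median log2 was 0.32 in the odd bins and 0.29 in the even bins, and 132 of them were past 0.25 in the even bins, where 8.61% of all windows were. The 312 windows chosen as lower had medians of -0.33 and -0.29, and 202 were past -0.25 in the even bins, against 13% of all windows. The even bins thus gave nearly the medians of the odd bins, from separate reads. Odd and even bins interleave in the same libraries, and both entered the rule. A bias of a library or of a stretch would be in both, so the split is no replicate check.

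The spread of levels differed between the libraries. Over all windows the SD of the log2 level was 0.46 for H3R2me2s, 0.41 for H3R2me2sK4me3 and 0.37 for H3K4me3. Higher members had median levels of 1.28, 1.14 and 0.994 in that order, with interquartile ranges of 1.14 to 1.42, 1.03 to 1.29 and 0.874 to 1.14. Lower members had medians of 0.670, 0.720 and 0.871, with interquartile ranges of 0.613 to 0.739, 0.651 to 0.791 and 0.791 to 0.944. H3R2me2sK4me3, whose values did not enter the ratio, stood between the other libraries in both sets of medians. The median of H3R2me2s lay farther from its genome-wide level than that of H3K4me3 in both sets.

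H3R2me2sK4me3 over H3K4me3 shares the H3K4me3 values with the rule, so it is given side by side and tests nothing. Pooled over background it had a log2 ratio of 0.208 (0.201 to 0.214) in higher and -0.275 (-0.281 to -0.270) in lower members. It was past the threshold in 57 of 184 higher members, beside 3.08% of all windows, and in 141 of 290 lower members, beside 6.63% of all windows (9.71% in either direction). The arginine antibodies differed from each other in far fewer windows. H3R2me2s over H3R2me2sK4me3 was past the threshold in 1.31% of windows, 0.971% higher and 0.338% lower, and 22 members were among them.

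**Figure D1:**
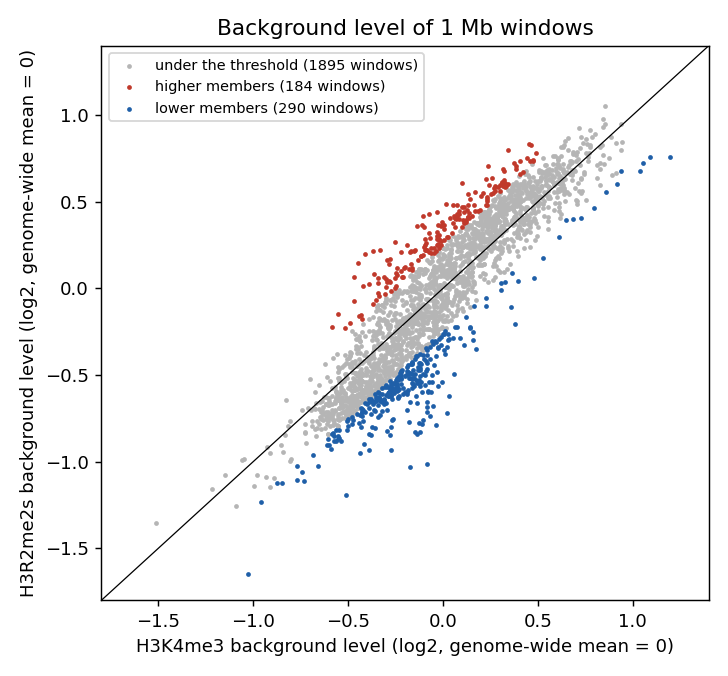
Background level of each 1 Mb window in the H3K4me3 library (x axis) and the H3R2me2s library (y axis), both on a log2 scale with the genome-wide mean at 0, and the line of equal levels. The 184 higher members lie above the line and mostly in the middle and upper range, and the 290 lower members lie below it, most of them at low levels and a few at the highest H3K4me3 levels.

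The 10 members with the largest ratios were all lower members. The strongest was at chromosome 4, 152000001 to 153000000, with 1170 background reads of H3R2me2s, 909 of H3R2me2sK4me3 and 2817 of H3K4me3. Its levels were 0.494, 0.486 and 0.942, and its log2 ratio was -0.93 (-1.03 to -0.83). The next, at chromosome 1, 91000001 to 92000000, had levels of 0.489, 0.496 and 0.886 and a log2 ratio of -0.86 (-0.96 to -0.76). In both windows H3R2me2s and H3R2me2sK4me3 were near 0.5 while H3K4me3 was close to its genome-wide level, and neither window held an enriched bin.

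Chromosome 5 held 3 of the 10. At 128000001 to 129000000 the levels were 0.579, 0.595 and 0.974 (log2 ratio -0.75), at 127000001 to 128000000 they were 0.563, 0.631 and 0.920 (-0.71), and at 131000001 to 132000000 they were 0.564, 0.573 and 0.904 (-0.68). A second window of chromosome 4, at 142000001 to 143000000, had 0.608, 0.627 and 1.02 (-0.74). Chromosome 12, 108000001 to 109000000, had 0.559, 0.531 and 0.911 (-0.70). All of these again had H3K4me3 between 0.90 and 1.02 with both arginine antibodies under 0.64.

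The remaining windows of the 10 were on chromosomes 2 and 10. Chromosome 2, 178000001 to 179000000, had levels of 0.581, 0.573 and 0.925 and a log2 ratio of -0.67 (-0.77 to -0.58). Its neighbour at 177000001 to 178000000 rested on 301 background bins, close to the minimum of 300, and had 0.437, 0.517 and 0.702 (-0.68, interval -0.88 to -0.49). Chromosome 10, 125000001 to 126000000, had 0.599, 0.726 and 0.953 (-0.67). There H3R2me2sK4me3 lay farther above H3R2me2s than in the other 9 windows. When each of the 10 was cut into pieces of 100 kb with at least 30 background bins, every piece had a negative log2 ratio, with 2 pieces in the window of 301 bins and 10 in each of the others. These windows, and the runs cut the same way below, were chosen on the same reads, so mostly negative pieces follow from the choice. In the strongest window the 10 pieces ranged from -1.22 to -0.60.

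Imbalance in the other direction was smaller. The 5 highest members, singled out after their values were seen, began with chromosome 6, 90000001 to 91000000, at levels of 1.15, 0.985 and 0.754 and a log2 ratio of 0.61 (0.52 to 0.69). Chromosome 7, 151000001 to 152000000, had 1.11, 0.884 and 0.734 (0.59), and chromosome 4, 136000001 to 137000000, had 1.16, 0.942 and 0.774 (0.59). They were followed by chromosome 6, 91000001 to 92000000, with 1.16, 1.01 and 0.795 (0.55), and chromosome 7, 119000001 to 120000000, with 1.05, 0.914 and 0.721 (0.54). In these 5 windows H3R2me2s was a little above its genome-wide level and H3K4me3 well below its own. Among all members, 430 had a log2 ratio under 0.5 in size and 44 had more, of which 9 were higher and 35 lower. No window reached -1, and 3 windows reached 0.58. On the lower side, all 10 of the largest ratios were more than 0.58 in size. The part of DNA copies in these values was not tested.

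Members were tied to how many enriched bins a window held, which also decides which of its bins are background. Of 471 windows without an enriched bin, 155 were lower members and 1 was higher, and their median levels were 0.650 for H3R2me2s, 0.701 for H3R2me2sK4me3 and 0.749 for H3K4me3. In 247 windows with 1 to 4 enriched bins, 52 were lower and 1 was higher. The 619 windows with 5 to 19 held 56 lower and 55 higher members. With 20 to 49 enriched bins the balance was the other way, with 18 lower and 92 higher among 670 windows, and median levels of 1.21, 1.17 and 1.11. In the 362 windows with 50 or more there were 9 lower and 35 higher members. Median log2 ratios over the 5 classes were -0.20, -0.13, -0.03, 0.10 and 0.08. Over the 2369 windows, Spearman's rho between enriched bins and the log2 ratio was 0.57, where both measures come from the same 3 libraries. Windows with fewer than 5 enriched bins thus held most lower members, and windows with 20 or more held most higher members.

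**Figure D2:**
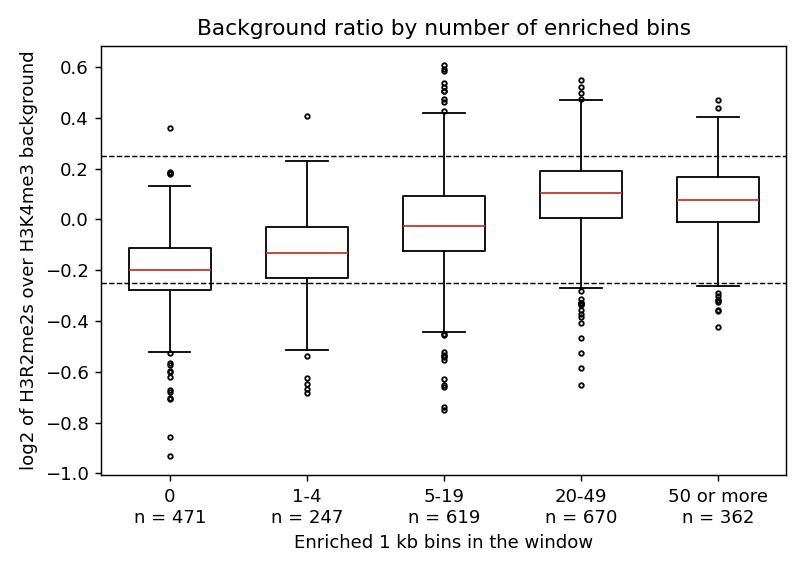
Log2 of H3R2me2s over H3K4me3 background (y axis) in windows grouped by their number of enriched 1 kb bins (x axis), with n windows under each group. Boxes span the quartiles with the median in red, whiskers reach 1.5 times the box, points lie beyond, and dashed lines mark the threshold of 0.25 in each direction. The medians go from -0.20 without enriched bins to 0.10 at 20 to 49 bins.

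After the median of its class was subtracted from each window, a setting chosen after seeing the data, 295 windows were past the threshold, 143 higher and 152 lower. Of the 474 members, 210 were among them. Among the 155 lower members without an enriched bin, H3K4me3 was above the median of its class in 123 and H3R2me2s was below its own in 84. Their median levels were 0.643 for H3R2me2s, 0.692 for H3R2me2sK4me3 and 0.826 for H3K4me3. These counts describe the values that chose the members. Of the 10 strongest members, H3R2me2s was below the class median in 10 and H3K4me3 above it in 9.

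A smaller set of lower members was dense in enriched bins. The 9 with 50 or more enriched bins, named after their values were seen, include chromosome 1, 173000001 to 174000000, with 114 enriched bins and levels of 1.60, 1.71 and 2.06 (log2 ratio -0.36). Chromosome 7, 134000001 to 135000000, with 172 enriched bins, had 1.60, 1.53 and 1.92 (-0.26). Chromosome 10, 79000001 to 80000000, with 152, had 1.47, 1.43 and 1.81 (-0.30). Chromosome 17 held neighbouring windows of this kind, at 34000001 to 35000000 (1.13, 1.11 and 1.44) and at 35000001 to 36000000 (1.23, 1.27 and 1.53). Chromosome 8, 74000001 to 75000000, had 1.32, 1.24 and 1.66. H3R2me2s was near its genome-wide level in 3 of the 9. These were at chromosome 10, 128000001 to 129000000 (1.03, 1.19 and 1.25), chromosome 13, 23000001 to 24000000 (0.992, 1.08 and 1.24), and chromosome 13, 67000001 to 68000000 (1.04, 1.11 and 1.39). Windows with 50 or more enriched bins had medians of 1.45, 1.36 and 1.36. In all 9, H3K4me3 was the highest of the 3 levels. Their background bins numbered from 441 to 678, where the median window had 845.

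Only 2 higher members had fewer than 5 enriched bins. Chromosome 16, 12000001 to 13000000, had none and stood at 0.857, 0.834 and 0.668 (log2 ratio 0.36), between higher members that held 56 and 31 enriched bins. Chromosome 8, 12000001 to 13000000, had 3 and stood at 0.904, 0.825 and 0.681 (0.41). In both windows H3K4me3 was the lowest of the 3 levels and all 3 were below the genome-wide mean.

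Distance from enriched bins separated these patterns further. Over all windows used, bins 6 to 10 kb from the nearest enriched bin had levels of 1.59 for H3R2me2s, 1.55 for H3R2me2sK4me3 and 1.68 for H3K4me3, a log2 ratio of -0.08. At 21 to 50 kb the levels were 1.30, 1.26 and 1.20 (0.12), at 51 to 100 kb 1.09, 1.07 and 0.994 (0.13), and beyond 200 kb 0.692, 0.731 and 0.770 (-0.15). Pooled over windows, H3K4me3 background was thus relatively high beside enriched bins, relatively low at intermediate distance, and relatively high again beyond 200 kb. Windows under the threshold had the same order of signs, with -0.09, 0.10, 0.11 and -0.10 at these distances. Neither set of members had this change of sign, as higher members had positive and lower members negative ratios at every distance.

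Within higher members the log2 ratio was 0.11 (0.09 to 0.13) at 6 to 10 kb, 0.36 (0.35 to 0.37) at 21 to 50 kb and 0.43 (0.42 to 0.45) at 51 to 100 kb. Over that range H3R2me2s went from 1.66 to 1.24 and H3K4me3 from 1.53 to 0.914. Lower members had ratios of -0.37 (-0.40 to -0.34), -0.24 (-0.26 to -0.22) and -0.30 (-0.32 to -0.27) at these distances, and -0.39 (-0.39 to -0.38) beyond 200 kb. Most of their background lay there, in 184483 bins against 22405 for the higher members. With background taken more than 50 bins from enriched bins, a setting chosen after seeing the data, 555 of 1890 windows were past the threshold, 323 higher and 232 lower. When the minimum was also lowered to 100 background bins, 735 of 2248 were, 486 higher and 249 lower. Other settings that moved the split were the median of 5 kb sums, with 443 higher and 302 lower, and lower limits for enriched bins (10, 10 and 15 reads), with 265 and 278.

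Lower members also lay preferentially toward the distal ends of chromosomes. Mouse chromosomes have their centromere at the start of the sequence. In the last 25% of the chromosome lay 136 lower members, or 46.9% of them, where 26.0% of all windows lay. The first 25% held 19, or 6.55%, where 22.6% of windows lay. Of the higher members, 35.3% were in the last 25% and 21.7% in the first. Windows without an enriched bin showed the gradient most plainly. Going from the first to the last 25%, the share that were lower members was 7.69%, 15.3%, 48.4% and 70.3%, over 117, 137, 126 and 91 windows. Their median H3K4me3 level was 0.681, 0.732, 0.789 and 0.877 in that order. The H3R2me2s medians were 0.630, 0.647, 0.656 and 0.685, and those of H3R2me2sK4me3 were 0.676, 0.702, 0.707 and 0.738. H3K4me3 background of these windows thus differed along the chromosome more than that of either arginine antibody. Base composition was not measured here, since no mm9 genome was used, and its part in this was not tested.

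**Figure D3:**
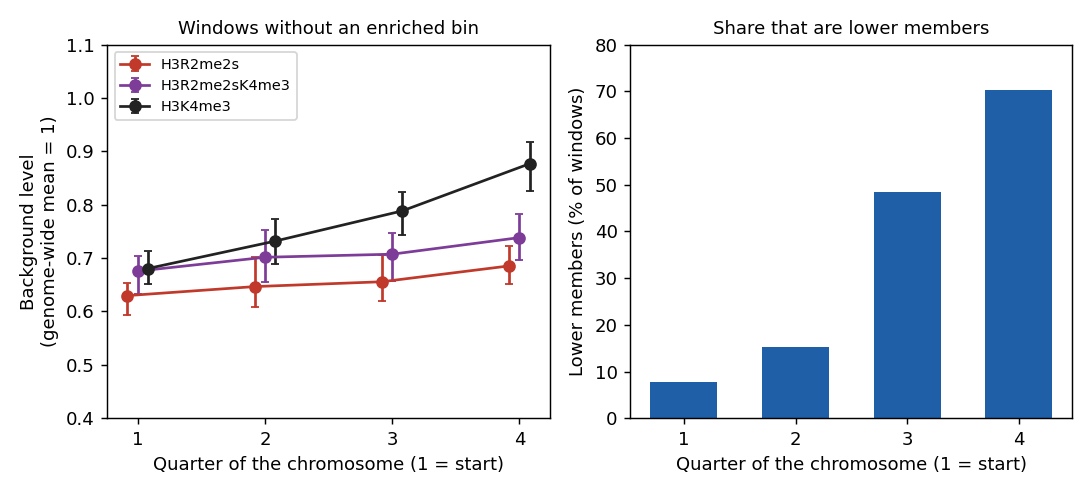
Left, background level of windows without an enriched bin (y axis, genome-wide mean at 1) by position in the first to the last 25% of the chromosome (x axis), as medians with bars from the first to the third quartile for each library. Right, the share of these windows that were lower members. The H3K4me3 median goes from 0.681 to 0.877 and the share from 7.69% to 70.3%.

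The members were then joined into runs, in which neighbouring windows were members of 1 direction. There were 97 runs of at least 2 windows, 33 higher and 64 lower, which held 240 members, or 50.6% of them. Of all windows, 20% are members. That is not a base rate for the share in runs, and no such base rate was computed. The other 234 stood alone. Most runs were short. There were 68 of 2 windows (24 higher and 44 lower), 20 of 3 and 9 of 4 or more. Neighbouring windows had an r of 0.47 between their log2 ratios over 2332 pairs, and 0.26 at 2 Mb and 0.08 at 5 Mb. Neighbours share libraries and chromatin, and the value is given as a description. At 10 Mb r was 0.09, so ratios were most alike between neighbours and little alike from 5 Mb on. Members of 1 direction lay side by side in 143 pairs, and members of opposite direction in 11.

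The longest run covered 8 windows at chromosome 1, 185000001 to 193000000. Its background held 13263 reads of H3R2me2s, 10571 of H3R2me2sK4me3 and 22090 of H3K4me3, and stood at 0.778, 0.785 and 1.03. The log2 ratio was -0.40 (-0.43 to -0.37), with windows from -0.55 to -0.27, and the windows before and after it had -0.12 and 0.03. The ratio was not even along the run. Its 77 pieces of 100 kb ranged from -1.10 to 0.61 with an SD of 0.33, where counting error has a median SD of 0.14, and 69 were negative.

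The run with the largest ratio, among the 9 of 4 or more windows, was at chromosome 5, 126000001 to 130000000. Levels there were 0.596, 0.608 and 0.932, and the log2 ratio was -0.64 (-0.69 to -0.60). The window before it was a higher member at 0.34 and the window after it had 0.09. It was separated by that single window from another lower run, at chromosome 5, 131000001 to 135000000, with 0.630, 0.634 and 0.926 (-0.56, interval -0.60 to -0.51). All 40 pieces of the first run were negative, as were 36 of 40 in the second. Across this part of chromosome 5 H3K4me3 remained near 0.93 in both runs, while the arginine antibodies stood at about the same low level in each.

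Other long lower runs were at chromosome 6, 138000001 to 142000000 (0.695, 0.728 and 0.926, log2 ratio -0.41), and at chromosome 14, 106000001 to 112000000 (0.689, 0.748 and 0.853, -0.31). They were also at chromosome 8, 102000001 to 106000000 (0.680, 0.725 and 0.836, -0.30), and at chromosome 16, 68000001 to 72000000 (0.724, 0.807 and 0.897, -0.31). In the last 3 the windows just before and after had ratios between -0.20 and -0.11, so that these runs had no abrupt edge at the threshold. Their H3K4me3 levels lay from 0.836 to 0.897, below those of the chromosome 5 runs. Higher runs of 5 windows were at chromosome 16, 10000001 to 15000000 (1.18, 1.12 and 0.950, 0.31), and at chromosome 19, 55000001 to 60000000 (1.29, 1.20 and 1.03, 0.32). All 8 members of chromosome 19 were higher members.

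**Figure D4:**
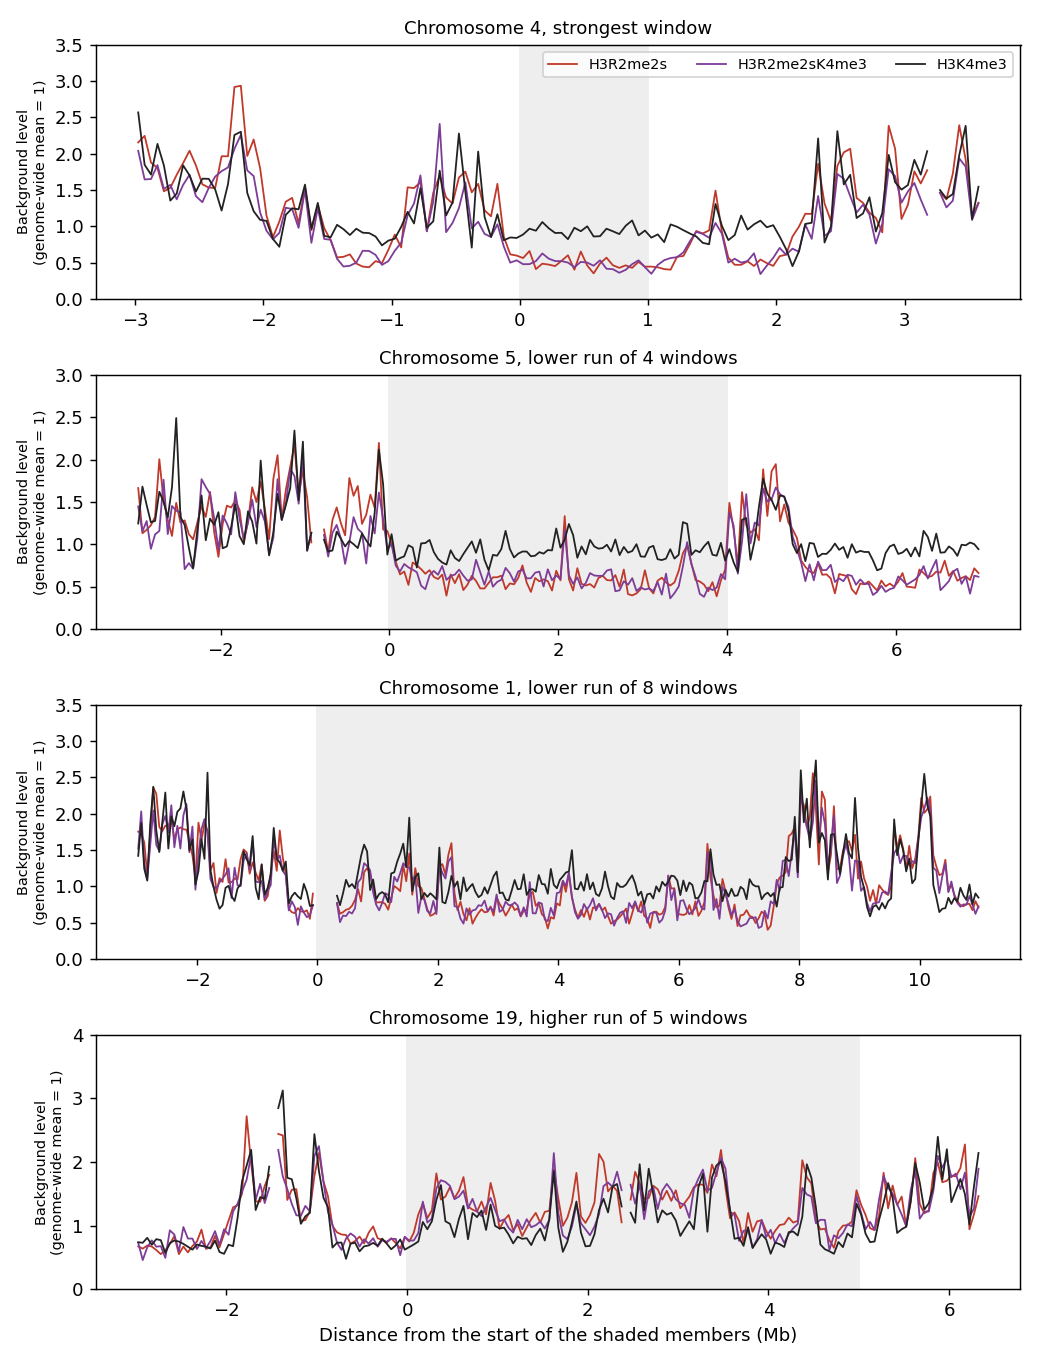
Background level in 50 kb steps (y axis, genome-wide mean at 1) of the 3 libraries against distance from the start of the shaded members (x axis, Mb), for the strongest window, the lower runs of 4 and 8 windows and a higher run of 5. Breaks in a line are steps with too few background bins. In the shaded lower members of chromosomes 4 and 5, H3R2me2s and H3R2me2sK4me3 lie below H3K4me3 along most of the stretch, with levels over the members of 0.494, 0.486 and 0.942 on chromosome 4 and of 0.596, 0.608 and 0.932 on chromosome 5.

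Edges were examined by comparing the 500 kb on either side of 42708 positions at 50 kb steps. The step in the log2 ratio had an SD of 0.21, where counting error has a median SD of 0.09. Among the 20 largest steps at least 1 Mb apart, from 0.85 to 1.14 in size, H3R2me2s changed level more than H3K4me3 in 18. At chromosome 4, 141400000, the largest, H3R2me2s went from 1.27 to 0.629 and H3R2me2sK4me3 from 0.962 to 0.636, while H3K4me3 went from 0.931 to 1.02. At chromosome 12, 109300000, H3R2me2s went from 0.484 to 0.932, H3R2me2sK4me3 from 0.516 to 0.905 and H3K4me3 from 0.894 to 0.855. At chromosome 8, 121750000, they went from 0.557 to 1.13, from 0.604 to 1.00 and from 0.891 to 0.897. In these 3 examples both arginine antibodies changed level while H3K4me3 changed little. Among all 20 steps, the log2 step of H3K4me3 was under 0.25 in 11 and that of H3R2me2sK4me3 in none. The 20 were ranked on the ratio of these same levels, and H3R2me2s had a wider spread over all windows (SD of log2 level 0.46) than H3K4me3 (0.37). No share over all 42708 positions is given for any of these counts, so they describe the 20 steps only.

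Enriched bins gave a measure that the rule did not use, because they and the 5 bins on each side were left out of background. Genome-wide they held 1260287 reads of H3R2me2s, 2568826 of H3R2me2sK4me3 and 6160634 of H3K4me3, and ratios are given relative to these sums. Enriched bins were called on reads of the same libraries. In higher members the log2 ratio of H3R2me2s over H3K4me3 in enriched bins was 0.02 (0.01 to 0.03), where the background ratio of the same windows was 0.34 (0.33 to 0.34). Lower members had -0.03 (-0.04 to -0.02) in enriched bins and -0.36 (-0.37 to -0.36) in background. With the background of each window subtracted from its enriched bins, the ratios were -0.0016 and 0.0075. For H3R2me2sK4me3 over H3K4me3, enriched bins gave -0.0064 in higher and 0.0026 in lower members. With bins called on H3R2me2sK4me3 alone, the ratio of H3R2me2s over H3K4me3 was 0.007 in higher and -0.006 in lower members. Pooled over members, enriched bins thus differed far less between the libraries than background did. Of the 290 lower members, 155 held no enriched bin and entered only the background ratio. The 27 lower members with 20 or more enriched bins gave 36210 of the 48876 H3R2me2s reads in enriched bins of lower members. Their ratio of H3R2me2s over H3K4me3 was -0.01 in enriched bins and -0.35 in background.

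Values of single windows scattered more. Enriched bins of 1795 windows held 100 reads or more of H3R2me2s and H3K4me3 together, and 14.5% of these windows were past 0.25 in either direction (4.62% higher and 9.86% lower). Of 183 higher members among them, 5 were past 0.25 and 6 past -0.25, and the median was 0.02. Of 114 lower members, 10 were past 0.25 and 28 past -0.25, with a median of -0.08. Of these 28, 27 had fewer than 20 enriched bins. Lower members with 1 to 19 enriched bins had a pooled ratio of -0.08 (-0.11 to -0.06), beside -0.07 (-0.08 to -0.06) in windows under the threshold with as many. Their windows with 100 reads had a median of -0.13, and 27 of 87 were past -0.25, beside a median of -0.07 and 130 of 620 in the windows under the threshold.

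Runs gave the same comparison over longer stretches. All 33 higher runs of 2 or more windows had 100 enriched reads, and their median log2 ratio was 0.33 in background and -0.01 in enriched bins. Of the 64 lower runs, 39 had as many reads, with medians of -0.38 and -0.05. In 28 of these 39 the interval of the enriched ratio reached 0. In 6 of the 39 the enriched bins were also past -0.25, and in 5 of the 6 the interval did not reach 0. They include the run with the strongest window, at chromosome 4, 152000001 to 154000000, with -0.34 (-0.54 to -0.15) in enriched bins and -0.78 in background. Chromosome 4, 142000001 to 144000000, had -0.45 (-0.68 to -0.23) and -0.71. The others were at chromosome 3, 118000001 to 120000000 (-0.70 and -0.30), chromosome 10, 123000001 to 126000000 (-0.69 and -0.47), chromosome 13, 70000001 to 73000000 (-0.28 and -0.42), and chromosome 16, 68000001 to 72000000. The 8-window run of chromosome 1 had 1977 H3R2me2s reads and 10169 H3K4me3 reads in enriched bins, a log2 ratio of -0.07 (-0.14 to -0.0038) beside -0.40 in background. In the chromosome 5 run from 126000001 the values were -0.04 (-0.23 to 0.14) and -0.64, and in the one from 131000001 they were 0.02 (-0.20 to 0.23) and -0.56. The run of chromosome 16 from 68000001 had -0.43 (-0.64 to -0.22) in enriched bins from 212 H3R2me2s reads and -0.31 in background. Other runs among the 39 were past 0.25 in enriched bins, opposite to their background. The run of chromosome 2 from 98000001 had 1.398 (0.95 to 1.83), and that of chromosome 14 from 94000001 had 0.34 (0.22 to 0.47). The run of chromosome 17 from 76000001 had 0.33 (0.0013 to 0.65). Intervals reached 0 at chromosome 8 from 14000001, with 0.45 (-0.0085 to 0.88), and at chromosome 6 from 138000001, with 0.27 (-0.04 to 0.57). The run of chromosome 8 from 102000001 held no enriched bin, so it could not be compared.

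**Figure D5:**
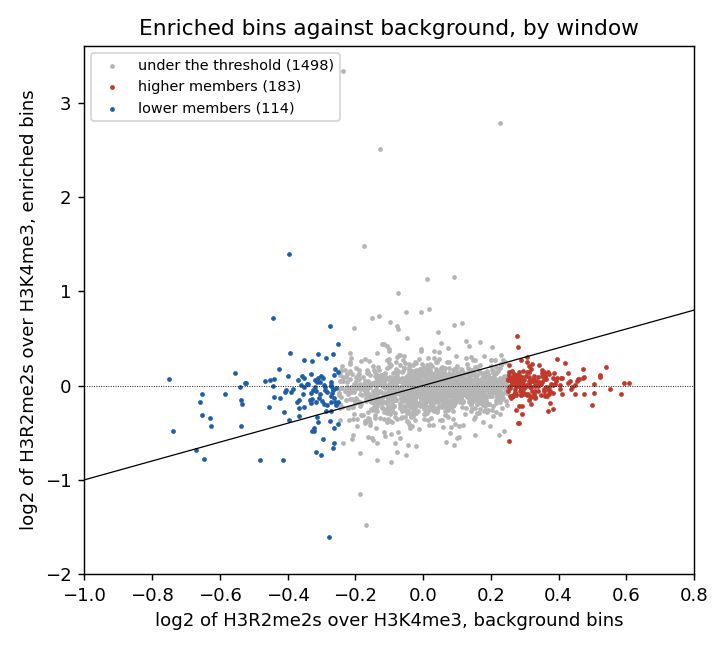
Log2 of H3R2me2s over H3K4me3 in enriched bins (y axis) against the same ratio in background bins (x axis), for the 1795 windows with 100 or more enriched reads, with a line where both are equal. Higher and lower members spread to both sides along the x axis, and on the y axis they scatter around medians of 0.02 and -0.08.

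Whole chromosomes differed little. The level of chromosomes 1 to 19 ranged from 0.923 to 1.14 for H3R2me2s, from 0.919 to 1.11 for H3R2me2sK4me3 and from 0.948 to 1.07 for H3K4me3. The highest log2 ratios were 0.11 on chromosome 19 and 0.09 on chromosome 11, and the lowest was -0.05 on chromosome 3. Chromosome X, outside the rule, stood at 0.510, 0.530 and 0.534, which is near 0.5 in all 3 libraries. Of its 146 windows, none was higher and 22 were lower by the same threshold when scaled to chromosomes 1 to 19, and 2 were higher and 8 lower when scaled to chromosome X itself. Those without an enriched bin had a median log2 ratio of -0.19, close to the -0.20 of such windows on chromosomes 1 to 19.

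Shares of members varied between chromosomes. Chromosome 17 had the largest share, with 26 of 92 windows (28.3%), of which 20 were lower, followed by chromosome 2 with 47 of 177 (26.6%). The smallest share was on chromosome 18, with 7 of 88 (7.95%). Chromosome 11 had 19 higher and 4 lower members, and chromosome 10 had 3 higher and 17 lower. Over 19 chromosomes, the number of protein-coding genes per window, from RefSeq gene names of GRCm38 and without its coordinates, had a Spearman's rho of 0.29 with the share of higher members and of 0.13 with that of lower members. These are descriptions over chromosomes that share libraries.

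Other properties of the reads were looked at beside the members. Reads repeating a position and strand made up 4.44% of H3R2me2s background in higher members, 5.42% in lower members and 5.09% in other windows, against 1.27%, 1.55% and 1.48% for H3K4me3. Plus-strand reads were between 49.9% and 50.1% in every library and set of windows. Windows with under 600 background bins made up 8.28% of lower members, 2.72% of higher members and 4.39% of all windows. Bins beside enriched bins are also left out of background, so that count does not measure mappability. The part of mappability in the lower members was not tested.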

How the data were processed

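Each line of a deposited file is a single mapped read, 39 bases long, with the value 1, so the authors' counts are raw and unscaled. Per the submitters' processing notes the build was mm9. The aligner, its rules on repeats and any removal of repeated reads are not given in the sources used here. Libraries of sonicated chromatin had 15 PCR cycles and fragments of 100 to 500 bp, per the labels' protocols.

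Reads were shifted 75 bp toward their 3-prime end before they were assigned to bins of 1 kb. Levels, members and runs were computed with Python 3.11.15, numpy 2.4.6 and scipy 1.17.1, and the script was tested on simulated data. A window with under 300 background bins (50 of 2419) was left out and ended a run. No test between antibodies was made, as each had 1 library. Named are runs of 2 or more members, described singly from 4 windows (a limit set after the values were seen), the 10 largest ratios, 3 windows on each side of the threshold, and members with H3R2me2sK4me3 over H3K4me3 past 0.25 in the opposite direction, of which there were 0. The members and lists were chosen with earlier results of these data known. Genes were not named, since the reference table is for GRCm38 and windows are in mm9.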

Additional observations from a re-analysis of the deposited data

How the results depend on the processing

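The count of 474 members stayed within 1.5 times under 12 of 20 settings. At thresholds of 0.2, 0.3 and 0.5 there were 750, 299 and 44 members (308, 111 and 9 higher, and 442, 188 and 35 lower), and at 0.2 and 0.3 there were 159 and 49 runs. Windows of 500 kb gave 1267 members of 4719 (515 higher, 752 lower), and windows of 2 Mb gave 166 of 1197 (68 and 98). The median of 5 kb sums gave 745 (443 higher and 302 lower). Settings added after seeing the data were background over 50 bins from enriched bins, with 555 (323 higher) at the same minimum of 300 background bins and 735 (486 higher and 249 lower) at a minimum of 100, the class median subtracted, with 295 (152 lower), and odd with even bins. Lower limits for enriched bins (10, 10 and 15 reads) gave 265 higher and 278 lower. With 1 read per position and strand, H3R2me2sK4me3 over H3K4me3 in lower members was -0.269, from -0.275. With bins enriched for H3R2me2sK4me3, the enriched ratio was 0.007 in higher members and -0.006 in lower ones. Of 321 recomputed ratios of named runs and windows, none changed sign and 3 left their interval. No paired analysis was possible because there were no replicates, and for the same reason no library was left out.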

Other observations

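In 2 of the 20 largest steps of the log2 ratio, H3K4me3 was the library that changed level most, and both were chosen after their values were seen. At chromosome 11, 118850000, the levels over 500 kb went from 1.03 to 1.56 for H3R2me2s, from 0.789 to 1.34 for H3R2me2sK4me3 and from 0.559 to 1.66 for H3K4me3. At chromosome 6, 128450000, they went from 1.08 to 1.35, from 0.988 to 1.39 and from 0.795 to 1.79.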
